A study of Mus musculus with 8 samples.

Results

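Thyroid hormone receptors and the receptors for retinoic acid and its isomers are transcription factors that bind DNA with or without their ligand. Chromatin accessibility at the 8 mouse genes of the group was examined: Thra and Thrb (thyroid hormone receptors alpha and beta), Rara, Rarb and Rarg (retinoic acid receptors) and Rxra, Rxrb and Rxrg (retinoid X receptors). All regions that the deposited accessibility table assigns to one of these gene names were taken, 555 of 489637 regions, and 219 of them passed a filter on low signal. Open chromatin was assayed by ATAC-seq (a transposase cuts and tags accessible DNA) in nuclei from mouse gastrocnemius, a mainly fast-twitch calf muscle. There were 8 libraries, 4 labelled Vehicle and 4 labelled iMSBmal1KO, and all came from animals of the genotype Cre+:iMSBmal1 fl/fl at 6 months of age. The iMSBmal1KO animals had received Tamoxifen, which switches on an inducible Cre recombinase and so removes the clock gene Bmal1, and the Vehicle animals the vehicle alone. Drug and knockout therefore cannot be told apart. The labels give neither the promoter that drives Cre nor the time of day of collection, and they do not say that libraries of a group came from separate animals, so p-values measure only the spread between these libraries.

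As background, thyroid hormone and retinoic acid receptors mostly act as heterodimers with a retinoid X receptor on repeats of a short DNA half-site. Without ligand they hold corepressors at their targets, and ligand exchanges these for coactivators. In skeletal muscle thyroid hormone sets the balance of fast and slow myosins and of calcium pumps. Bmal1 is the clock factor that pairs with Clock on E-boxes, and Nr1d1 and Nr1d2, clock-controlled repressors, lie beside Thra and Thrb on their chromosomes.

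Of the RefSeq promoters, 5 carry the contrasts described below, and the 250 bases before each start are printed 5′ to 3′ on the gene's strand (RefSeq, GRCm38.p6). Rarb is shown for its repeat, Thrb for its strongly open promoter and both Rxrg starts because the internal one was the more open. An Rxra start is shown because its window held no region. It is called first as the first of the Rxra windows, but the RefSeq span of the gene begins upstream of it, at chr2:27676445. Capitals mark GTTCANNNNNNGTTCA in Rarb, the direct-repeat layout of the known retinoic acid response element of that promoter, and AGGTCA, the nuclear receptor half-site, in Thrb and at the internal Rxrg start; the other two hold neither.
Rarb, chr14:16575477-16575726, minus strand: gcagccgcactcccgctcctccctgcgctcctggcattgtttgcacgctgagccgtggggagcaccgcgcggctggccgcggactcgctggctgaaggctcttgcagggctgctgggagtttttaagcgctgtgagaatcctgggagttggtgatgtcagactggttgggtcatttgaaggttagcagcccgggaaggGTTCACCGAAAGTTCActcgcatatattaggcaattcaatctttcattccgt
Thrb, chr14:17660710-17660959, plus strand: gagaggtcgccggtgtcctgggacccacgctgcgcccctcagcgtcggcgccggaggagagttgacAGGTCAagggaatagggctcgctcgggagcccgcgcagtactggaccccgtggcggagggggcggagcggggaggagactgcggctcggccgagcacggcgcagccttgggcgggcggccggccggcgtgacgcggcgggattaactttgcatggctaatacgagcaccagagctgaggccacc
Rxrg internal start, chr1:167618015-167618264, plus strand: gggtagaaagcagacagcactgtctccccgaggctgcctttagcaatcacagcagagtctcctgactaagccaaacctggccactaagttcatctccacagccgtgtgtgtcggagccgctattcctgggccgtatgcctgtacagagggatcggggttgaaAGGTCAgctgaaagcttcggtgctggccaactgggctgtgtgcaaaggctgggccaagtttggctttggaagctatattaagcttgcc
Rxrg first start, chr1:167598112-167598361, plus strand: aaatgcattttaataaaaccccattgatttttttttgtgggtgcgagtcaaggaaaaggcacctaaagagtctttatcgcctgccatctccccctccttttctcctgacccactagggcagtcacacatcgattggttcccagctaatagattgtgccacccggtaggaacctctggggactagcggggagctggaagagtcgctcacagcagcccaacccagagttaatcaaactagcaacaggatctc
Rxra first start, chr2:27676951-27677200, plus strand: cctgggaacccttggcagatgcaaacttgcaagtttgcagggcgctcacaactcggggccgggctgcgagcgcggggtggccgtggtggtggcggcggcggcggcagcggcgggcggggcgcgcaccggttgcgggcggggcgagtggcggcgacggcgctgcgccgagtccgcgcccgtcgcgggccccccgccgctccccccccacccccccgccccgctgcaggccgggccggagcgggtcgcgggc

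The letters were searched on both strands of these 250 bases in the 15 RefSeq windows of 7 of the genes and in all 32851 windows. The Rarb repeat began 52 bases before the start, and 22 windows of all, 0.0670%, held this layout. AGGTCA was in 4 of the 15 windows and in 14.02% of all, and it began 184 bases before the Thrb start and 88 bases before the internal Rxrg start. The E-box CACGTG, the letters bound by Bmal1 and Clock, was in 2 of the 15 windows and in 6.02% of all. One lay 10 bases before a Rara start and the other 193 bases before a second Thrb start whose window held no region. These matches are descriptions of letters, and binding was not measured.

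Total signal was worth 4.31 M to 29.5 M reads per library (M, units of 1e+06), and Vehicle replicate 4 was the shallowest and had 16.5% of its signal on the mitochondrial chromosome against 1.11% to 5.51% in the other 7. The median tested region held 6 reads in that library and 51.0 in iMSBmal1KO replicate 1. Signal at the promoters of fast fibre markers had a median percentile of 96.9 among genes, and at slow fibre markers it was 34.6. The fast markers were not uniform: Myh4 lay at 57.6 and Myh1 at 37.7, and the others at 92.8 or more. Slow markers ran from 29.7 (Myh7) to 59.7 (Tnni1). The other marker lists lay lower or near the middle of all genes: macrophage 3.25 (Adgre1, Cd68 and Mrc1 without a promoter region), Schwann cell 15.1, hepatocyte 16.9, endothelial cell 17.5, satellite cell 30.3, fibro-adipogenic cell 37.8 and smooth muscle 45.9. Marker signal summed over promoter regions overlapped between the groups for each list. For fast fibres it was 8054 to 13159 in Vehicle and 10011 to 11639 in iMSBmal1KO. For Schwann cells it was 181 to 368 against 336 to 457. In such bulk nuclei, fewer nuclei with an open region and less opening per nucleus cannot be told apart.

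Promoter accessibility in Vehicle muscle differed widely among the receptors. Signal over regions within 1000 bp of the start of the transcript that the table assigns them to was divided by their length, since levels of different genes can be compared only per length. Rxrb, the broadly expressed retinoid X receptor, had 745 ± 179 signal per kb (mean ± SD, n = 4), which is the percentile 91.0 of 22214 genes. Rxrg, the retinoid X receptor typical of skeletal muscle, had 745 ± 107 per kb. Thrb had 662 ± 140 per kb and Rara, the broadly expressed retinoic acid receptor, 547 ± 37.7 per kb. Rarb followed with 337 ± 100 per kb, Rxra with 283 ± 14.6 and Rarg with 254 ± 23.3. Thra, the receptor known to carry much of the thyroid hormone response in muscle, was lowest with 114 ± 7.31 per kb, the percentile 47.8. Between neighbours in this order, the Vehicle libraries did not overlap only from Rara down to Rarb and from Rarg down to Thra. Within libraries, Rxrg lay above Thrb, Thrb above Rara, Rara above Rarb and Rarg above Thra in 8 of 8, Rxra above Rarg in 7, Rarb above Rxra in 6 and Rxrb above Rxrg in 3. The order depended on the window: with 500 bp Thrb had 1159 per kb and led, Rxra (348) passed Rarb (337), and Rarg (138) lay close to Thra (119). The iMSBmal1KO means were 848 ± 130 for Rxrb, 822 ± 76.3 for Rxrg, 717 ± 104 for Thrb, 560 ± 58.5 for Rara, 417 ± 18.4 for Rarb, 269 ± 31.8 for Rxra, 240 ± 31.7 for Rarg and 120 ± 17.4 for Thra. The ranking of the means was the same in both groups.

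**Figure D1:**
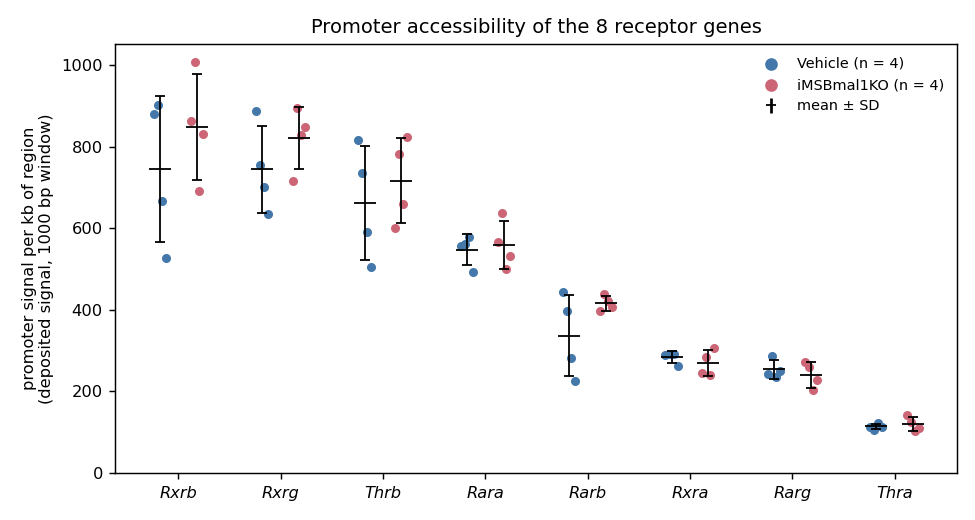
Signal per kb over regions within 1000 bp of an annotated start (y axis) for the 8 receptor genes (x axis), with a point for each library and black bars for the mean ± SD of each group of 4. Rxrb, Rxrg, Thrb and Rara lie at 492 or more in every library and Thra at 141 or less.

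How the signal was laid out along the genes differed as well. Rxrb, a compact gene, had 6 regions, all within 1000 bp of a start, and 1 of them held 84.5% of its Vehicle signal. Rxrg had 66.7% in 1 region, at the internal start 19.96 kb past its first one, and Rarg had 47.5% in 1 region 10.2 kb past its first start. Thra had 56.1% in a region of intron 2, and only 16.9% within 1000 bp of a start. Thrb, spread over 381 kb, had 230 regions of which 6 held 50% of the signal, and its promoter region alone held 33.2%. Rara and Rarb needed 3 regions each to reach 50%, with 16.5% and 10.4% of their signal near a start, while Rarg needed 2 and had 72.4% near a start. In Rxra 5 of 80 regions held 50%, and 22.1% lay near a start. The table labels 48.9% of tested receptor regions as exons of the 5′ untranslated part against 9.56% of all tested regions, and in Thrb that label reaches 264 kb past the assigned start, so it was not read as an exon.

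**Figure D2:**
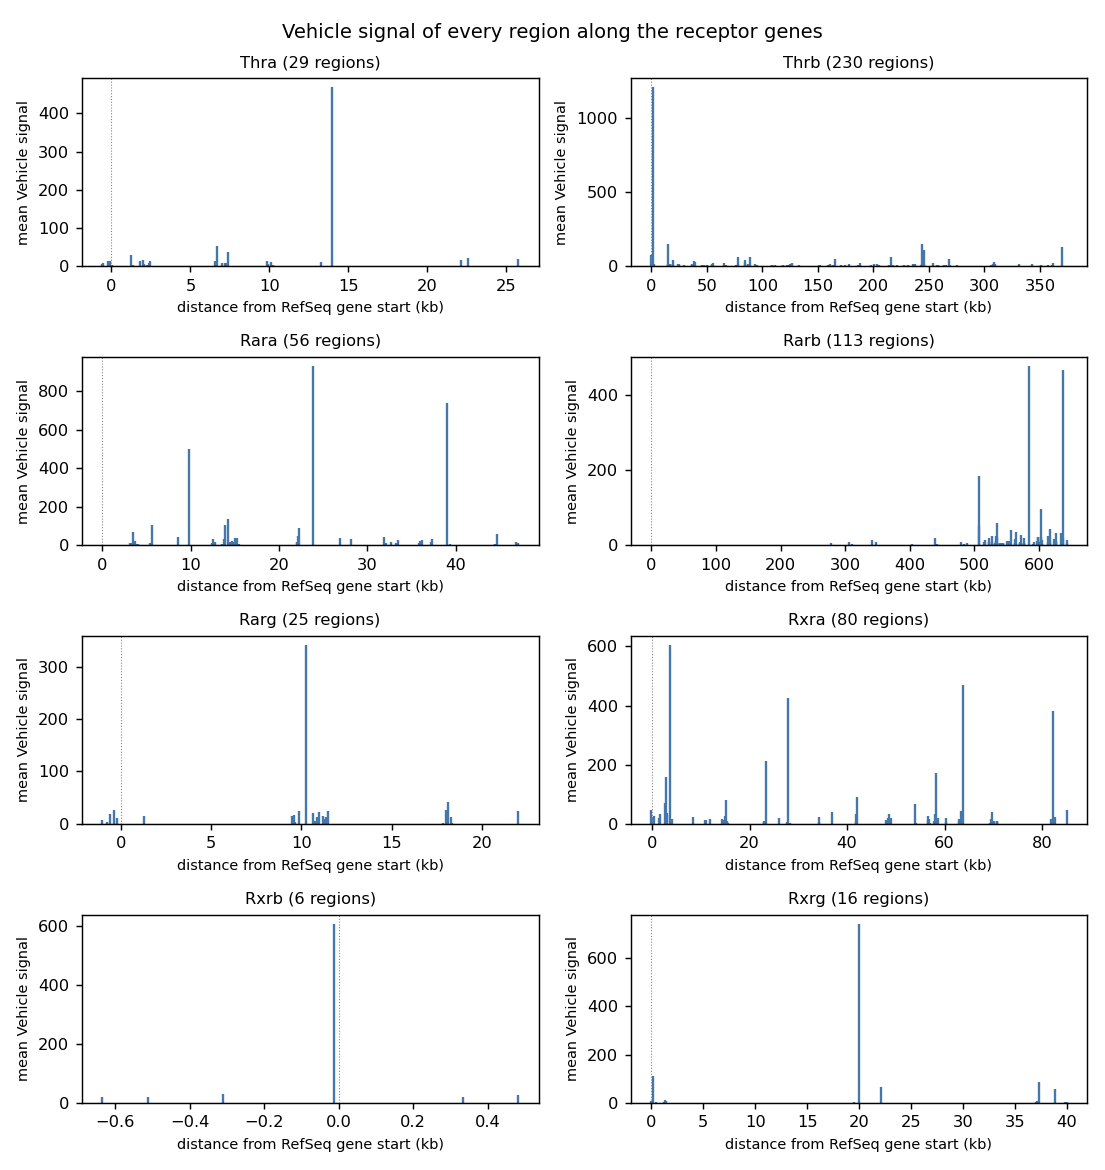
Mean signal of each region over the 4 Vehicle libraries (y axis) by distance from the start of the RefSeq gene span in kb (x axis), one panel per receptor gene. Rxrb is a single promoter peak, Rxrg peaks 19.96 kb and Rarg 10.2 kb past the start, and Rxra carries several strong regions along the gene.

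The Thra locus shares its far end with Nr1d1, the clock-controlled repressor transcribed towards it. Of the Vehicle signal inside the RefSeq span of Thra (chr11:98740776-98769006), 547 of 1343, or 40.8%, lay in 2 regions that the table assigns to Nr1d1. The larger of them, chr11:98768665-98769134, had 541 ± 106 in Vehicle and 516 ± 60.1 in iMSBmal1KO (log2 change -0.06, adjusted p = 0.936 by limma). Summed over the regions of Nr1d1 the log2 change was 0.05 (adjusted p = 0.917), and over those of Nr1d2 it was -0.26 ± 0.14 (SE, adjusted p = 0.551). Those 2 regions are not counted as Thra here.

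RefSeq promoter windows of 300 bases gave the starts apart from the table's own annotation. Of the 15 windows 10 overlapped a region, against 45.5% of all windows. Signal in a window was taken as the share of a region's signal by overlap. The internal Rxrg window had 365 ± 56.7 in Vehicle and 395 ± 36.9 in iMSBmal1KO, while the first Rxrg window had 19.4 ± 5.64 and 21.5 ± 4.21. In every library the internal window lay above the first. The first Rarg window had 4.41 ± 2.73 and a later one 39.7 ± 9.26. The first Rxra window held no region although 83.0% of its bases were G or C. Tested regions did lie upstream of this window, around the beginning of the RefSeq gene span, with Vehicle means of 47.0, 21.3, 15.3, 23.6 and 25.9. Windows of over 80% G and C overlapped a region in 69.7% of cases over all genes, with a mean signal of 54.7, against 86.6% and 166 for windows between 65% and 70%. The Thrb window, 72.7% G and C, had 364 ± 76.4, the Rxrb window 351 ± 91.7, the overlapping Rara windows 267 ± 20.6 and the Rarb window, 57.7% G and C, 140 ± 45.2.

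**Figure D3:**
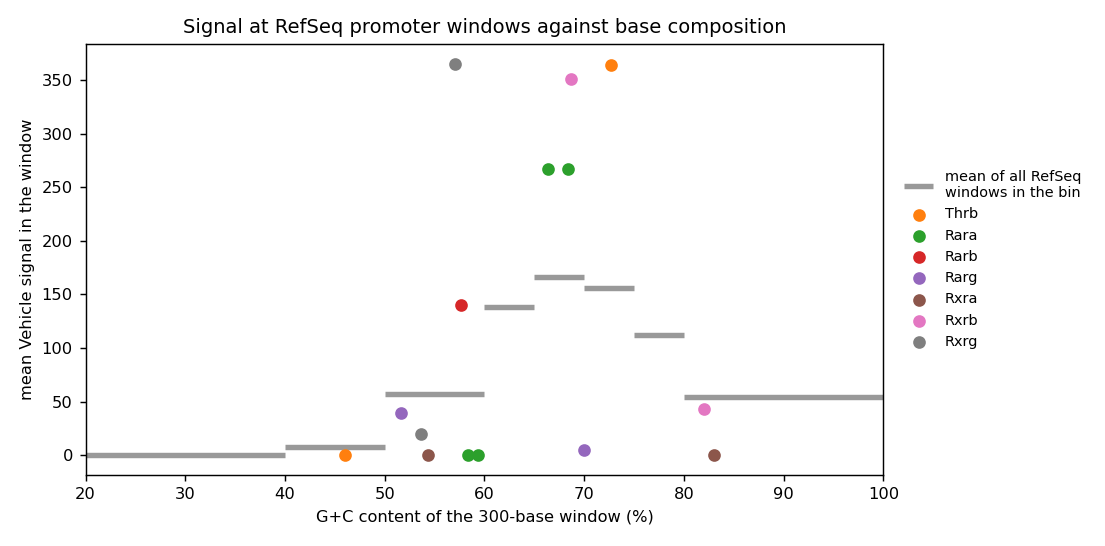
Mean Vehicle signal in 300-base RefSeq windows (y axis) against their G and C content in percent (x axis); colored points are the windows of 7 receptor genes and gray bars the mean of all windows in a bin. The internal Rxrg window reaches 365 at 57.0% G and C, and the Rxra window at 83.0% has no signal.

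The comparison of iMSBmal1KO with Vehicle asks whether loss of Bmal1 alters chromatin at these genes. None of the 219 receptor regions passed an adjusted p of 0.05 in limma, where 110 of 124901 regions, 0.0881%, did (0.0312% higher and 0.0568% lower in iMSBmal1KO). The smallest adjusted p of a receptor region was 0.373, and the smallest over 18 alternative settings was 0.0990. At an unadjusted p under 0.05 there were 11 receptor regions, 5.02%, against 9.22% of all regions; 4 were higher in iMSBmal1KO (all regions 6.59%) and 7 lower (2.63%). With median-of-ratios scaling there were 20, or 9.13% against 9.76% of all regions. Of these, 3 were higher (all regions 4.87%) and 17 lower. With loess scaling there were 17, or 7.76% against 10.1% of all regions, 2 higher (all regions 4.90%) and 15 lower. The 2.63% lower among all regions holds for the deposited scaling only. Groups did not overlap at 11 receptor regions, which is 5.02% against 5.48% of all tested regions; 2 were higher (all regions 3.62%) and 9 lower (1.87%). The log2 change was positive at 113 receptor regions, 51.6%, against 62% of all. Its median was 0.01 over the receptor regions and 0.12 over all, on the log2(signal + 1) scale, and ranged from -1.19 to 1.36. With median-of-ratios scaling the medians were -0.10 and 0.01, and without Vehicle replicate 4 they were -0.08 and 0.04.

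**Figure D4:**
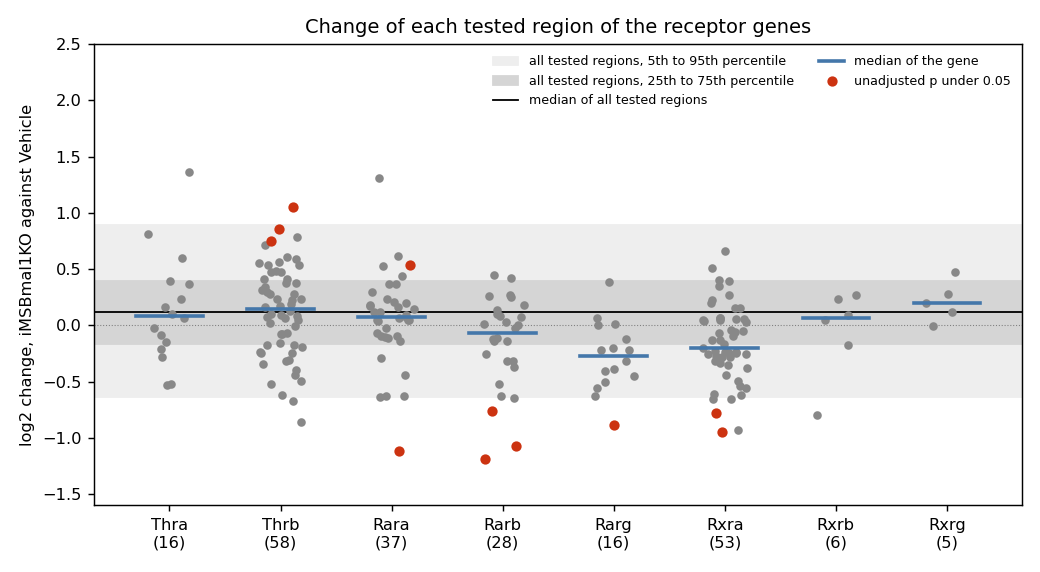
Log2 change of each tested region, iMSBmal1KO minus Vehicle (y axis), for the 8 receptor genes (x axis), with a blue bar at the median of a gene, a black line at the median of all tested regions and gray bands for their middle 50% and 90%; red points have an unadjusted p under 0.05. The gene medians run from -0.27 for Rarg to 0.20 for Rxrg around the 0.12 of all regions, and no region passed the adjusted threshold.

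Of the 48 tested receptor regions within 1000 bp of a start, 1 had an unadjusted p under 0.05, against 8.19% of all such regions. By gene, the median change was 0.20 over 5 tested regions of Rxrg, 0.14 over 58 of Thrb, 0.08 over 16 of Thra, 0.07 over 37 of Rara and 0.07 over 6 of Rxrb. It was -0.07 over 28 of Rarb, -0.20 over 53 of Rxra and -0.27 over 16 of Rarg. Only 4 of 16 Rarg regions and 18 of 53 Rxra regions had a positive change. These counts describe regions that often abut and share a gene, so they are not independent. The 26 receptor regions with a Vehicle signal of 100 or more had a median change of 0.07, a range of -0.37 to 0.75 and a median SE of 0.21. The 193 weaker ones had a median of -0.03 and a median SE of 0.35. An unadjusted p under 0.05 in limma was reached by 9 of these 193 and by 2 of the 26 stronger ones. Over all tested regions of any signal, 11516 of 124901, or 9.22%, reached it.

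Signal summed over all regions of a gene gave 1 value per library. For Thra the Vehicle sums were 809, 765, 1031 and 732 and the iMSBmal1KO sums 710, 849, 738 and 807. Their log2 change was -0.10 ± 0.15 (SE, 95% interval -0.41 to 0.22, adjusted p = 0.83 by limma over 22224 genes). The Thra groups overlapped, with Vehicle replicate 3 highest. For Thrb the sums were 4214, 4021, 3419 and 2848 in Vehicle and 3622, 4151, 3586 and 4429 in iMSBmal1KO, a change of 0.13 ± 0.14 (-0.17 to 0.43, adjusted p = 0.738). Vehicle replicate 4 was the lowest Thrb value and the groups overlapped.

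Among the retinoic acid receptors, Rara had sums of 3771, 3359, 3842 and 2986 in Vehicle and 3542, 3925, 3202 and 3565 in iMSBmal1KO. The Rara change was 0.03 ± 0.13 (-0.24 to 0.31, adjusted p = 0.946), and the knockout values lay inside or just above the Vehicle range. For Rarb the sums were 2661, 2232, 2128 and 1910 against 1947, 2291, 1982 and 2283, a change of -0.06 ± 0.14 (-0.36 to 0.23, adjusted p = 0.880). All 4 knockout values of Rarb lay inside the Vehicle range. Rarg had 659, 771, 667 and 775 against 737, 697, 555 and 637, a change of -0.13 ± 0.15 (-0.44 to 0.18, adjusted p = 0.750), with overlapping groups.

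Among the retinoid X receptors, Rxra had sums of 4208, 3878, 4003 and 3392 in Vehicle and 3098, 3892, 3495 and 4335 in iMSBmal1KO, a change of -0.07 ± 0.14 (-0.35 to 0.21, adjusted p = 0.864). Rxrb had 851, 871, 644 and 510 against 834, 972, 667 and 802, a change of 0.21 ± 0.18, the largest SE of the 8 (-0.17 to 0.58, adjusted p = 0.670). Rxrg had 1327, 1160, 1064 and 900.5 against 1056, 1333, 1217 and 1269, a change of 0.14 ± 0.15 (-0.18 to 0.45, adjusted p = 0.739). The groups overlapped in each of the 3 genes, and Vehicle replicate 4 was the lowest Vehicle value in all of them. Over the 8 receptors this library was the lowest Vehicle value in 7, Rarg being the exception. None of the 8 sums passed the threshold, where 29 of 22224 gene sums, 0.13%, did, and none had an unadjusted p under 0.05, where 9.48% did.

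At single regions, the strongest Thra region was chr11:98754293-98755181 in intron 2. It held 466, 398, 614 and 394 in Vehicle and 256, 437, 438 and 415 in iMSBmal1KO. iMSBmal1KO replicate 1 stood lowest and the other knockout values lay within the Vehicle range (log2 change -0.28 ± 0.22, adjusted p = 0.666). The Thra promoter region with the highest signal per kb, chr11:98741913-98742071, was weak, 29.9 ± 5.21 against 29.3 ± 5.13 (-0.03 ± 0.28). The Thra region with the smallest p, chr11:98750587-98750661, held 12.7 ± 8.26 and 20.1 ± 7.80, from 1 to 31 reads per library, and its groups overlapped (0.81 ± 0.47, adjusted p = 0.589; 0.33 without Vehicle replicate 4, which held 1 read).

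The Thrb promoter region, chr14:17660331-17661321, includes the printed sequence and lay at the percentile 98.1 of tested regions per kb. It held 1484, 1336, 1064 and 929 in Vehicle and 1056, 1397, 1187 and 1489 in iMSBmal1KO. The groups overlapped almost wholly (0.10 ± 0.18, 95% interval -0.28 to 0.49, adjusted p = 0.867). In intron 8 a region at chr14:18029295-18029534 held 131 ± 38.5 and 151 ± 24.2 (0.24 ± 0.24, adjusted p = 0.750). The Thrb region with the smallest p, chr14:17845068-17845287, lies 184 kb past the start of the transcript the table assigns it to and was weak, with 7.46, 14.4, 6.99 and 3.13 against 14.6, 16.7, 20.3 and 12.5. Vehicle replicate 2 reached into the knockout range (1.05 ± 0.43, adjusted p = 0.503). A stronger distal region, chosen after its values were seen, was chr14:17902406-17902859 with 233, 178, 129.6 and 62.5 in Vehicle and 202, 243, 205 and 271 in iMSBmal1KO. Vehicle replicate 1 overlapped the knockout values and replicate 4 was far lower (0.75 ± 0.31, adjusted p = 0.511).

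The strongest Rara region per kb was in intron 3, chr11:98951282-98951967, with 988, 916, 913 and 900.5 in Vehicle and 811, 927, 781 and 932 in iMSBmal1KO. Knockout replicates 1 and 3 lay below each Vehicle value and the other two inside the range (-0.11 ± 0.16, adjusted p = 0.833). The Rara promoter region, chr11:98937344-98937905, held 499 ± 38.5 and 516 ± 61.3 (0.04 ± 0.18, adjusted p = 0.947). A region 5.47 kb from the start of its assigned transcript, chr11:98933288-98933511, was the only receptor region with a Vehicle signal of 100 or more whose groups separated, with 134, 94.5, 129 and 62.5 in Vehicle and 145, 152, 144 and 144 in iMSBmal1KO. The knockout values were tightly grouped above every Vehicle value (0.54 ± 0.24, adjusted p = 0.530), and without Vehicle replicate 4 the change was 0.31. Another Rara region, chr11:98931436-98931570, separated the other way at low signal, 18.5 ± 9.06 against 7.51 ± 1.85 (-1.11 ± 0.40, adjusted p = 0.465). Over all tested regions of any signal the groups separated at 5.48%, with 3.62% higher and 1.87% lower in iMSBmal1KO.

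At the Rarb promoter, chr14:16575371-16575761, which spans the printed repeat, signal was 245, 219, 149 and 119 in Vehicle and 228, 249.2, 237 and 229.6 in iMSBmal1KO. Vehicle replicates 3 and 4 were low, and the knockout libraries sat with Vehicle replicates 1 and 2 (0.42 ± 0.23, 95% interval -0.05 to 0.90, adjusted p = 0.571; 0.24 without Vehicle replicate 4). The smallest p of all receptor regions was also in Rarb, at chr14:16505579-16505742, 69.7 kb from the start of its assigned transcript. It held 24.5, 18.5, 16.5 and 15.6 in Vehicle and 5.14, 6.69, 8.35 and 11.3 in iMSBmal1KO, from 5 to 26 reads per library. Every knockout value lay below every Vehicle value (-1.19 ± 0.36, adjusted p = 0.373 in limma). A weak region of intron 1, chr14:16555256-16555413, had 22.9 ± 7.89 and 11.2 ± 5.17 (-1.07 ± 0.40, adjusted p = 0.484), and the strong region chr14:16497309-16497720 had 477 ± 127 and 502 ± 60.7 (0.10 ± 0.21, adjusted p = 0.882).

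**Figure D5:**
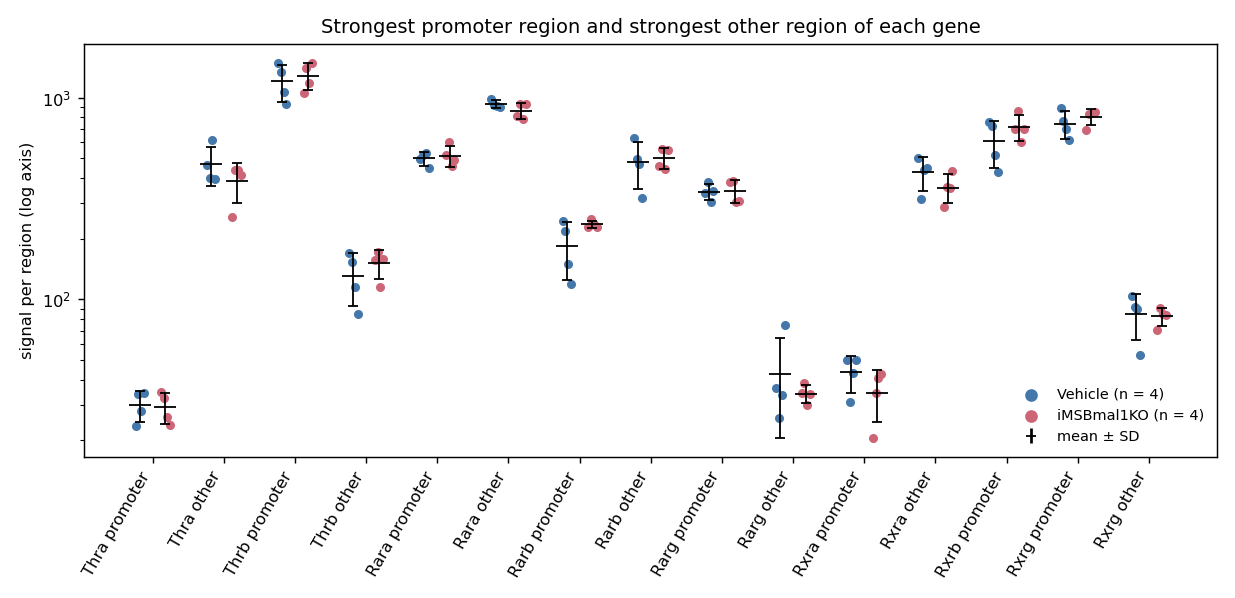
Signal per library (y axis, log scale) at the strongest promoter and the strongest other tested region of each receptor gene (x axis) (highest signal per kb), with 4 Vehicle and 4 iMSBmal1KO points and black bars for mean ± SD; Rxrb has no other region. The groups overlap at every region shown, from 929 to 1489 at the Thrb promoter down to 23.5 to 34.7 at the Thra promoter. The Rxra promoter region shown lies at an internal start, 63.3 kb past the beginning of the RefSeq gene span.

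The Rarg promoter region, chr15:102247006-102247586, held 338, 380, 303 and 344 in Vehicle and 382, 385, 303 and 309 in iMSBmal1KO. Its values overlapped throughout (0.01 ± 0.19, 95% interval -0.38 to 0.40, adjusted p = 0.991). In coding exon 8, chr15:102239368-102239430 had 42.6 ± 22.1 and 34.1 ± 3.53 (-0.20 ± 0.31). At the gene's end, chr15:102235420-102235626 held 15.99, 19.5, 20.3 and 43.8 against 15.8, 10.9, 9.54 and 12.5. All knockout values were lower there, but iMSBmal1KO replicate 1 (15.8) lay barely under Vehicle replicate 1 (15.99). Vehicle replicate 4 stood far above the other Vehicle values (-0.89 ± 0.35, adjusted p = 0.499, and -0.59 without that library).

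For Rxra, the tested promoter region with the highest signal per kb, chr2:27739746-27739827, held 43.5 ± 9.07 and 34.5 ± 9.96 (-0.35 ± 0.29). It lies at an internal start, 63.3 kb past the beginning of the RefSeq gene span. It abuts a longer region at a start, chr2:27739828-27740730, which was not named by the rule and held 470.2 ± 40.5 and 495 ± 75.5 (0.07 ± 0.18, adjusted p = 0.921). The Rxra region with the most signal, 15.6% of the gene's, starts at chr2:27679656, 3.67 kb past the beginning of the span. It was not named by the rule either, with means of 604 in Vehicle and 635 in iMSBmal1KO. A region 27.7 kb from the start of its assigned transcript, chr2:27704151-27704646, held 504, 313, 437 and 450.2 in Vehicle and 288, 359, 355 and 432 in iMSBmal1KO. Its groups overlapped (-0.24 ± 0.20, adjusted p = 0.694). The Rxra region with the smallest p, chr2:27734999-27735132, held 21.3, 16.4, 24.1 and 15.6 against 9.42, 10.0, 8.35 and 10.0. The knockout values lay close together below all Vehicle values, on 5 to 38 reads per library (-0.94 ± 0.33, adjusted p = 0.451).

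At the Rxrb promoter, chr17:34031541-34032059, signal was 754, 727, 519.8 and 428 in Vehicle and 700.2, 862, 604 and 702 in iMSBmal1KO. Vehicle replicates 3 and 4 were lowest and the groups overlapped (0.27 ± 0.20, 95% interval -0.16 to 0.69, adjusted p = 0.667). The abutting upstream region, chr17:34031465-34031540, held 31.1 ± 8.46 and 19.4 ± 9.39 (-0.80 ± 0.39, adjusted p = 0.546). At the internal Rxrg start, chr1:167618036-167618602, signal was 889, 765, 699 and 616 against 691, 830.4, 839 and 851. iMSBmal1KO replicate 1 lay apart from its group and inside the Vehicle range (0.12 ± 0.18, -0.25 to 0.49, adjusted p = 0.831). Regions in coding exon 9 (chr1:167635610-167635832, 84.7 ± 22.02 and 82.3 ± 8.55) and intron 9 (chr1:167637158-167637387, 57.2 ± 26.3 and 75.2 ± 8.68, adjusted p = 0.588) of Rxrg overlapped too.

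Across the 8 libraries, the gene whose summed signal was most like that of Thrb was Fzd7 (Pearson r = 0.993 over 22224 genes searched), and of Rxrg it was Tuba4a (r = 0.987). For Thra it was Lrg1 (0.986), for Rara Tdrp (0.968), for Rarb Gm16128 (0.988), for Rarg Gm34418 (0.989), for Rxra Rab44 (0.980) and for Rxrb 1600020E01Rik (0.989). Among the receptors the most alike were Rarb and Rxra (0.891), Thra and Rara (0.886), and Thrb and Rxrg (0.848). All points share the same 8 libraries and their depths, and each value is the highest of all genes searched.

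Genes that act with the receptors were taken as lists. Of 93 tested regions of ligand supply and transport genes none passed the adjusted threshold, with 7 higher and 2 lower at an unadjusted p under 0.05 and a median change of 0.09. None of 73 regions of other partners of retinoid X receptors passed (3 higher and 2 lower unadjusted, median 0.06), none of 201 regions of known target genes (19 higher and 4 lower, median 0.11) and none of 82 regions of chromosomal neighbours (10 higher and 2 lower, median 0.18). An unadjusted p under 0.05 was thus reached by 9.68% of ligand supply regions, 6.85% of partner regions, 11.4% of target gene regions and 14.6% of neighbour regions, where 9.22% of all tested regions did, with 6.59% higher, 2.63% lower and a median change of 0.12. With median-of-ratios scaling the share of all regions that was higher was 4.87%.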

How the data were processed

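ATAC-seq signal was analysed for 8 gastrocnemius libraries, 4 per group, from 50000 nuclei each per the labels. The authors deposited 1 table of signal per region and library with gene annotation; per the submitters' processing notes Partek, Bowtie2, MACS2 and DESeq2 and the builds mm10 and GRCm39 were named, with no versions or roles, and read filters, duplicate removal and any shift for the transposase are not given in the sources used here and could change the values. The deposited signal was not whole, but 98.5% to 99.8% of low values per library were whole multiples of 1 step (tolerance 0.02 reads), taken as the worth of 1 read; this gives 13.3, 13.0, 19.7 and 4.31 M reads in Vehicle and 29.5, 16.8, 12.4 and 11.2 M in iMSBmal1KO. Since reads could not be recovered for all values, the fallback written for a scaled signal was used as the main fit. The only fit on read equivalents was limma-voom, as an alternative. Counted reads carry no molecular identifiers.

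Regions with 0.762 reads per M in at least 4 libraries and 15 reads in all were tested, 124901 of 489637. They were fitted with limma-trend with robust moderation (limma 3.58.1, R 4.3.3) on log2(signal + 1), group as the only term, Benjamini-Hochberg adjustment over all tested regions and a threshold of 0.05. Sums per gene were fitted likewise over 22224 genes. The fit was also run on simulated reads with the same spread setting for every region. That setting is simpler than these data, so the run does not vouch for the calls here. Positions count from 1. RefSeq starts of GRCm38.p6 coincided with the table's transcript starts in 9.21% of cases at 1 offset against at most 0.721% beyond it and its neighbour, so the 2 share coordinates. Of gene names 82.7% matched RefSeq, all 8 receptors among them, and promoter windows were found for 7. Tables and figures were made with pandas 2.3.3 and matplotlib 3.10.9.

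Named were, per receptor, the tested region of highest Vehicle signal per kb near a start, that elsewhere, the one of smallest p, and at most 1 more with separate groups and an unadjusted p under 0.05; genes of other lists were named where a region passed the threshold or, for Nr1d1 and Nr1d2, as neighbours. The list of coregulators is not reported here. The members and lists were chosen with earlier results of these data known. Alternatives were other pseudocounts, filters, scalings, limma-voom, a replicate block, each library left out and other promoter windows.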

Additional observations from a re-analysis of the deposited data

Results flagged for a closer look

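Over the groups of 4 libraries examined, 82 group values were screened for a library whose gap to its nearest neighbour was too large a part of the group's range. There were 6 such values, where about 1 in 20 groups, or 4.1, would be expected if the groups were independent and unselected. They were neither, since they share libraries and genes and some regions were named for their p, so 4.1 is only a rough guide. In the intron 2 region of Thra (start 98754293), iMSBmal1KO replicate 1 was low with 256, the next being 415. The same library was low at the internal start of Rxrg (167618036), with 691 against 830.4 for the next. In Rara, iMSBmal1KO replicate 3 was low with 4.77 at the region starting 98931436 (next 8.13), and iMSBmal1KO replicate 2 was high with 152 at that starting 98933288 (next 145). Vehicle replicate 4 was high with 43.8 at the end of Rarg (102235420, next 20.3), and low with 262 promoter signal per kb at Rxra (next 290.5).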

How the results depend on the processing

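No receptor region passed the adjusted threshold in any of the 18 alternatives, and no receptor gene sum did. The number of regions called over the table, 110, was 195 with no filter, 279 with median-of-ratios factors, 271 with trimmed-mean scaling, 342 with loess scaling and 322 with limma-voom. Leaving out 1 library gave 32 (without Vehicle replicate 1) to 281 (without Vehicle replicate 4), with 41 without Vehicle replicate 3 and 43, 39 and 57 without iMSBmal1KO replicates 2, 3 and 4. Over the receptors 0 regions were called in each case.

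Of the 25 named receptor regions 18 kept their sign in every alternative. Signs turned at small changes under scaling. With median-of-ratios factors the log2 change was -0.015 at the Thrb promoter (start 17660331), -0.073 at the Rara promoter (98937344), -0.013 at Rarb 16497309, -0.11 at the Rarg promoter (102247006) and -0.081 for the Rara sum. With trimmed-mean scaling these were -0.016, -0.074, -0.014, -0.11 and -0.0804, and with limma-voom -4.13e-04, -0.028, -0.0083, -0.032 and -0.027. With total-signal scaling the Rara promoter was -0.0084, the Rarg promoter -0.044 and the Rara sum -0.015; with loess scaling Rara was -0.081, Rarb -0.022 and the Rarg promoter -0.13. Median-of-ratios scaling gives Vehicle replicate 4 a factor of 0.807 and takes the median of all regions from 0.12 to 0.01.

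Leaving out 1 library gave sums from -0.15 to 0.011 for Thra, 0.023 to 0.21 for Thrb, -0.041 to 0.081 for Rara, -0.14 to 0.023 for Rarb, -0.19 to -0.055 for Rarg, -0.15 to 0.013 for Rxra, 0.054 to 0.31 for Rxrb and 0.043 to 0.23 for Rxrg. Among regions the range crossed 0 for Thra 98741913 (-0.13 to 0.064), Thrb 17660331 (-0.013 to 0.21), Rara 98937344 (-0.031 to 0.099), Rarb 16497309 (-0.075 to 0.25), Rarg 102239368 (-0.40 to 0.11), Rarg 102247006 (-0.047 to 0.068) and Rxrg 167635610 (-0.21 to 0.11). Without Vehicle replicate 4 other changes shrank by over 1.5 times: Thra 98750587 to 0.33, Thrb 18029295 to 0.044, Rara 98933288 to 0.31, the promoters of Rarb, Rxrb and Rxrg to 0.24, 0.11 and 0.035, Rarg 102235420 to -0.59, and the sums of Thrb, Rxrb and Rxrg to 0.023, 0.054 and 0.043; the sums of Thra, Rarb and Rxra went to -0.15, -0.14 and -0.13.

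Promoter signal per kb moved with the window: with 500 bp Thrb had 1159, Rara 667, Rarg 138, Rxra 348 and Rxrb 929, and with 2500 bp Rarg had 229 and Rxrg 613, so the order depends on the window; Thra had 119 with 500 bp, close to Rarg.

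Same-numbered libraries shared little of their deviation from the group means (correlations -0.06, 0.14, 0.02 and 0.02). Such correlations cannot decide whether the libraries were paired. With the replicate block 100 regions were called, 77 of them shared with the main fit, and 0 receptor regions. Of 22224 gene sums 116 were called with the block against 29 in the main fit, and 0 receptor sums. Log2 changes are the same by construction.

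Depth limits weak regions most: in Vehicle replicate 4 the median tested region held 6 reads, and the median SE was 0.35 under a signal of 100. Reads were not recovered for all values, so the only fit on read equivalents was limma-voom, run as an alternative.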
